A study of Mus musculus with 8 samples.

Results

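The genes described here are 10 genes of glucocorticoid signaling in the mouse heart, of 15152 genes with a retained probe on the arrays. They are the receptors Nr3c1 and Nr3c2, the enzyme Hsd11b1, and 7 genes known to be induced by glucocorticoids, Fkbp5, Tsc22d3, Sgk1, Zbtb16, Pik3ip1, Errfi1 and Cdkn1c. Probes were assigned to a gene when the array design named them by a RefSeq transcript of that gene, and the brightest probe that was well above background on 4 or more arrays stood for the gene. All 10 genes had such a probe, and 9 of them had a single one.

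Ventricular RNA was measured 24 hours after surgery in 4 mice with myocardial infarction (MI mice) and 4 sham-operated mice, each on its own 1-colour array. All were male mice of the C57BL\6 background, and their age is not given in the labels. The MI mice had the anterior interventricular artery tied off for good, and both groups underwent surgery and, by the study's methods, imaging under isoflurane with acipimox premedication. Surgery, anesthesia and imaging were thus shared by MI and sham-operated mice, and no mouse without surgery is analysed here.

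Glucocorticoids, in mice mainly corticosterone, are released by the adrenal cortex under stress. They bind the glucocorticoid receptor, encoded by Nr3c1, which is held in the cytosol by chaperones, moves to the nucleus on binding and raises transcription from palindromic elements near its target genes while lowering that of many inflammatory genes. In cardiomyocytes the mineralocorticoid receptor, encoded by Nr3c2, can also bind glucocorticoids, and the enzyme encoded by Hsd11b1 regenerates active hormone from its inert form within the tissue.

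In MI mice Sgk1 fell 2.00-fold and Pik3ip1 2.36-fold. No gene of the 10 passed the test as higher, and Fkbp5, a widely used target of the receptor, passed in neither direction. Whether Tsc22d3, Hsd11b1 and Cdkn1c passed the test as lower depended on how the arrays were scaled. Signals are given on the log2 scale after each array was shifted by its spike-in RNA (spike-in scaling), and again after each array was set to the 75th percentile of its own spots (75th percentile scaling). MI and sham-operated mice were compared with limma over 34038 probes, and a gene was called at a Benjamini-Hochberg adjusted p under 0.05. With spike-in scaling, 1614 probes were called higher and 248 lower in MI mice, and with 75th percentile scaling 2958 higher and 2997 lower. The median log2 fold change of all probes was 0.11 and -0.02, so that a value with 75th percentile scaling lies 0.13 below that with spike-in scaling for each of these genes.

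The promoter windows of Sgk1 and Pik3ip1, which fell, and of Tsc22d3 and Fkbp5, which are classical receptor targets, are shown because the receptor is known to act through such sites. They hold the 250 bases before a transcription start, 5′ to 3′ on the strand of the gene, from RefSeq in the GRCm38.p6 build. Capitals mark the hexamer of the receptor's element, AGAACA or its reverse complement TGTTCT.
Sgk1 (chr10:21993640-21993889, plus strand): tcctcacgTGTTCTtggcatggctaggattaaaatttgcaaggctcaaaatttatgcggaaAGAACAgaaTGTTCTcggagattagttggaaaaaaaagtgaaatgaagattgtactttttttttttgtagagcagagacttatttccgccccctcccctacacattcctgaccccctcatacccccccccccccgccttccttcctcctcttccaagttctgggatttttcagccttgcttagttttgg
Pik3ip1 (chr11:3330481-3330730, plus strand): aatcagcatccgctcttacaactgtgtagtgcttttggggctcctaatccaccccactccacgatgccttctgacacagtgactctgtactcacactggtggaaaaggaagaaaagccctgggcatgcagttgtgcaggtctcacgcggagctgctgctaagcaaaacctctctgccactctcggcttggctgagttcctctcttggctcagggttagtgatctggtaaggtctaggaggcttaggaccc
Tsc22d3 (chrX:140600523-140600772, minus strand): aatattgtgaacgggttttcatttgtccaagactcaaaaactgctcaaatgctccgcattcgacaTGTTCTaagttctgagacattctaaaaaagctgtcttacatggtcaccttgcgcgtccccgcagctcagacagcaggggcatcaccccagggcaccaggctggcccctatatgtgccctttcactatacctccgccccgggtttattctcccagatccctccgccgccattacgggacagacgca
Fkbp5 (chr17:28486150-28486399, minus strand): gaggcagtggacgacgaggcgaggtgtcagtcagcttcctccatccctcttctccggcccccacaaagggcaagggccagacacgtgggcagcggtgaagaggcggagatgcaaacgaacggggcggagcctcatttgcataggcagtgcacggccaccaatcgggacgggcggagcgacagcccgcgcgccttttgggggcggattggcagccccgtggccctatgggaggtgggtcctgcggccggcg
A full palindrome, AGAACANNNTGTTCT, which contains the hexamer on both strands, was found in 3 of 32851 windows of this length (0.00913%). One of these 3 was the Sgk1 window shown, the fifth of 6 for this gene, with the letters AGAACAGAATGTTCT beginning 189 bases before the start. The hexamer was present in 16.1% of all windows. Among 15 windows of 7 of the 10 genes it was present in 4, of which 3 belonged to Sgk1 and 1 to Tsc22d3. The Tsc22d3 window shown is the third of 3 for this gene, and the other 2 lack the hexamer. Sgk1 is thus shown by its window with the palindrome, and Tsc22d3 by its window with the hexamer. Bases outside the windows were not searched, so a window without the hexamer, such as that of Fkbp5, does not show that the gene lacks such sites. The windows of Zbtb16, Nr3c1 and Cdkn1c are not shown. A match of letters is a description of the window and was not tied to any value on the arrays.

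Sgk1, a kinase that regulates ion channels and transporters and is induced by both receptors, was 1 of the 2 genes called with both scalings. In MI mice replicates 1 to 4 had log2 signals of 12.04, 12.52, 12.27 and 12.67 with spike-in scaling. The sham-operated mice had 13.61, 12.92, 13.49 and 13.48. All 4 MI mice lay below the lowest sham-operated mouse, replicate 2. Sgk1 fell by 1.00 on the log2 scale (SE 0.24, 95% interval -1.52 to -0.49, limma adjusted p = 0.0199, n = 4 per group), a 2.00-fold decrease, and the exact two-sided permutation test gave p = 0.0286, the smallest that 4 against 4 mice allow. It was -1.13 with 75th percentile scaling (limma adjusted p = 0.0118). The call with spike-in scaling was lost when any of 5 mice was left out. Without MI replicate 1, MI replicate 3, sham replicate 1, sham replicate 3 or sham replicate 4 the log2 fold change was -0.89, -0.97, -0.93, -0.97 and -0.97, with limma adjusted p between 0.0505 and 0.0819, whereas all 8 fits without 1 mouse passed with 75th percentile scaling. The probe was designed for transcript NM_001161845, and which of the Sgk1 windows belongs to it was not worked out here.

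Pik3ip1, a transmembrane inhibitor of phosphatidylinositol 3-kinase, fell the most of the 10 genes. Its log2 signals with spike-in scaling were 10.43, 9.11, 10.51 and 10.02 in MI mice against 11.59, 10.93, 11.09 and 11.41 in sham-operated mice. The groups did not overlap, and MI replicate 2 was the lowest. The log2 fold change was -1.24 (SE 0.30, 95% interval -1.87 to -0.60, limma adjusted p = 0.0200, n = 4 per group), a 2.36-fold decrease, with an exact permutation p = 0.0286. The value was -1.37 with 75th percentile scaling (limma adjusted p = 0.00317). Without MI replicate 2 the log2 fold change was -0.93 with spike-in scaling, under 2-fold but still called. The arrays stood in 2 rows of a slide with 2 mice of each group in each, and the log2 fold change was -1.49 in the first row and -0.99 in the second, against -0.99 and -1.02 for Sgk1.

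Thus 2 of the 10 genes were called lower with spike-in scaling, both also past 2-fold, where 0.729% of all probes were called lower and 0.596% lower past 2-fold. With 75th percentile scaling 5 of the 10 were called lower, where 8.8% of all probes were, and 2 of them past 2-fold, where 1.17% were. No gene of the 10 was called higher with either scaling, where 4.74% and 8.69% of all probes were. With spike-in scaling limma gave 3 of the 10 an unadjusted p under 0.05, all lower in MI mice, and significance analysis of microarrays called 2. Over all probes, significance analysis of microarrays called 3149 of 33865 in either direction. The share of all probes with an unadjusted p under 0.05 is not given, here or below, so such counts stand without a background. The 3 genes that joined with 75th percentile scaling were Tsc22d3, Hsd11b1 and Cdkn1c. The median log2 fold change of the 10 genes was -0.31 with spike-in scaling and -0.44 with 75th percentile scaling, and 8 of them had a negative value with both.

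**Figure D1:**
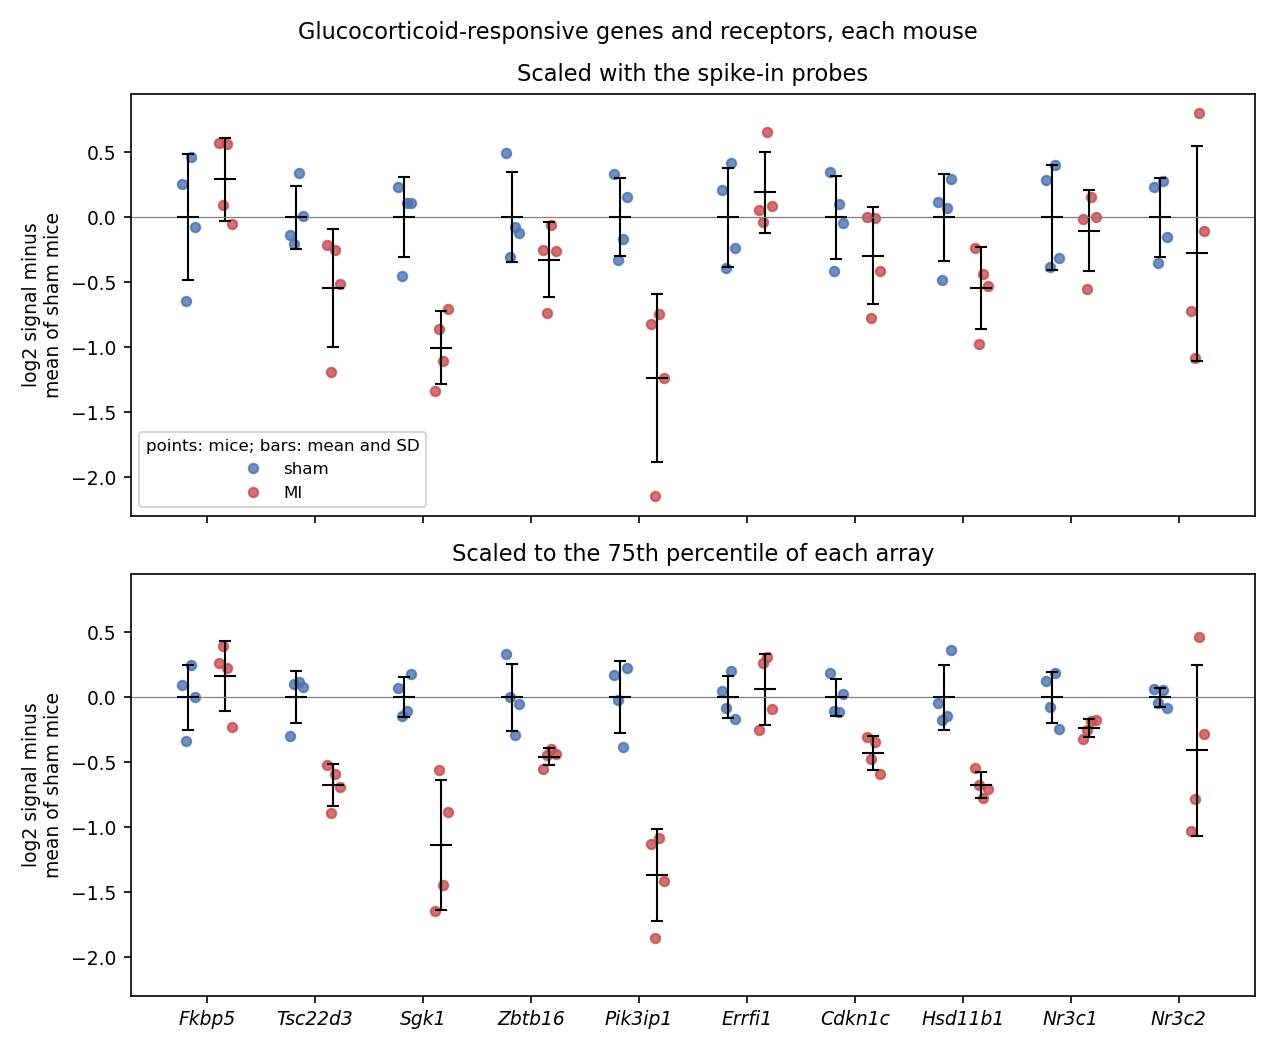
Log2 signal of each of the 10 genes in each mouse, as the difference from the mean of the sham-operated mice, with spike-in scaling above and 75th percentile scaling below (points are mice, bars the mean and SD, n = 4 per group). The MI mice lie apart from and below the sham-operated mice for Tsc22d3, Sgk1 and Pik3ip1 in the upper panel, and also for Zbtb16, Cdkn1c and Hsd11b1 in the lower panel.

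Tsc22d3 encodes the leucine zipper protein GILZ, an anti-inflammatory mediator of glucocorticoids. Its log2 signals with spike-in scaling were 13.71, 12.73, 13.67 and 13.41 in MI mice against 13.78, 13.72, 14.26 and 13.93 in sham-operated mice. The groups did not overlap, although MI replicate 1 lay just below sham replicate 2. The log2 fold change was -0.54 (SE 0.26, limma adjusted p = 0.297), and the exact permutation test gave p = 0.0286. Scaled to the 75th percentile, the MI mice had 13.47, 13.10, 13.40 and 13.30 against 13.69, 14.09, 14.11 and 14.07, and Tsc22d3 fell by 0.67 (SE 0.14, limma adjusted p = 0.0118). This call held in all 8 fits that left out 1 mouse. The SD of Tsc22d3 between MI mice was 0.16 with 75th percentile scaling and 0.45 with spike-in scaling, and between sham-operated mice 0.20 and 0.24. The array design named the probe by a single Tsc22d3 transcript. Which protein form and which of the Tsc22d3 windows belong to that transcript was not worked out here.

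Hsd11b1, the enzyme that regenerates active hormone, was also called with 75th percentile scaling only. Its signals with spike-in scaling, each a mean over up to 10 spots after outlier spots were dropped, were 11.72, 10.98, 11.52 and 11.43 in MI mice against 12.07, 11.48, 12.03 and 12.26 in sham-operated mice. Sham replicate 2 lay within the range of the MI mice, and the log2 fold change of -0.55 (SE 0.25) did not pass the test (limma adjusted p = 0.272). After 75th percentile scaling the MI mice had 11.48, 11.35, 11.25 and 11.32 and the sham-operated mice 11.98, 11.85, 11.88 and 12.39, without overlap. Hsd11b1 then fell by 0.68 (SE 0.14, limma adjusted p = 0.0128), and it was called in all 8 fits that left out 1 mouse. Summed signals of 8 fibroblast markers, a cell type in which this enzyme is known to be expressed, ranged with 75th percentile scaling from 60556 to 95145 in MI mice, against 105919 to 134405 in sham-operated mice, and overlapped with spike-in scaling. Of these 8 markers 6 had a negative log2 fold change and 2 a positive one, Tcf21 (0.42) and Postn (0.61). None of the 8 was called by limma with either scaling. An unadjusted p under 0.05 was found for 2 with spike-in scaling, Postn among them, and for 8 with 75th percentile scaling. With 75th percentile scaling limma called 8.69% of all probes higher and 8.8% lower even after adjustment. Fewer cells of a type and less RNA per cell cannot be told apart in RNA of whole ventricles, and the part of the fibroblast markers in the Hsd11b1 value was not tested.

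Cdkn1c and Zbtb16 had smaller differences. Cdkn1c, an inhibitor of cyclin-dependent kinases, had 10.33, 9.55, 10.32 and 9.91 in MI mice against 10.67, 9.91, 10.43 and 10.28 in sham-operated mice with spike-in scaling, with overlap and a log2 fold change of -0.30 (SE 0.25, limma adjusted p = 0.631). Scaled to the 75th percentile it was -0.43 (SE 0.12, limma adjusted p = 0.0358), but no fit that left out 1 mouse passed, with limma adjusted p from 0.0518 to 0.0899 and log2 fold changes from -0.47 to -0.36. Zbtb16, a zinc finger transcription factor whose mRNA is strongly induced by glucocorticoids in many tissues, had 12.79, 12.30, 12.98 and 12.78 in MI mice against 13.53, 12.73, 12.96 and 12.92 in sham-operated mice. MI replicate 3 lay above 3 of the 4 sham-operated mice, and sham replicate 1 was the highest of all. The log2 fold change of Zbtb16 was -0.33 (SE 0.25, limma adjusted p = 0.575) with spike-in scaling, and -0.46 (SE 0.14, limma adjusted p = 0.0522) with 75th percentile scaling, where the groups did not overlap. Counted over all 10 genes, MI mice lay wholly below sham-operated mice for 3 with spike-in scaling and for 6 with 75th percentile scaling, where 2.79% and 12.6% of all probes did.

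Fkbp5 encodes a co-chaperone that lowers the affinity of the receptor for its ligand. MI mice had log2 signals of 13.49, 13.01, 13.48 and 12.87 and sham-operated mice of 13.17, 12.27, 13.39 and 12.85 with spike-in scaling. The groups overlapped, and sham replicate 2 was the lowest of all 8 mice. The log2 fold change was 0.29 (SE 0.27, 95% interval -0.28 to 0.87, limma adjusted p = 0.664), and 0.16 (95% interval -0.23 to 0.55) with 75th percentile scaling. A decrease of Fkbp5 as large as that of Sgk1 lies outside both intervals, while a rise of up to 0.87 does not. Over the 8 mice, the 3 genes whose log2 signals with 75th percentile scaling went most closely with Fkbp5, among 18081 probes named by a gene and detected on all arrays, were Ddx19b (Pearson r = 0.960), Arglu1 (r = 0.951) and Parp4 (r = 0.942), given as a description.

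Errfi1, a feedback inhibitor of the epidermal growth factor receptor, was also not called with either scaling. The signals were 12.24, 12.15, 12.83 and 12.27 in MI mice against 12.39, 11.79, 12.60 and 11.94 in sham-operated mice with spike-in scaling. The log2 fold change was 0.19 (95% interval -0.35 to 0.73, limma adjusted p = 0.786), and 0.06 (95% interval -0.29 to 0.41) with 75th percentile scaling.

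**Figure D2:**
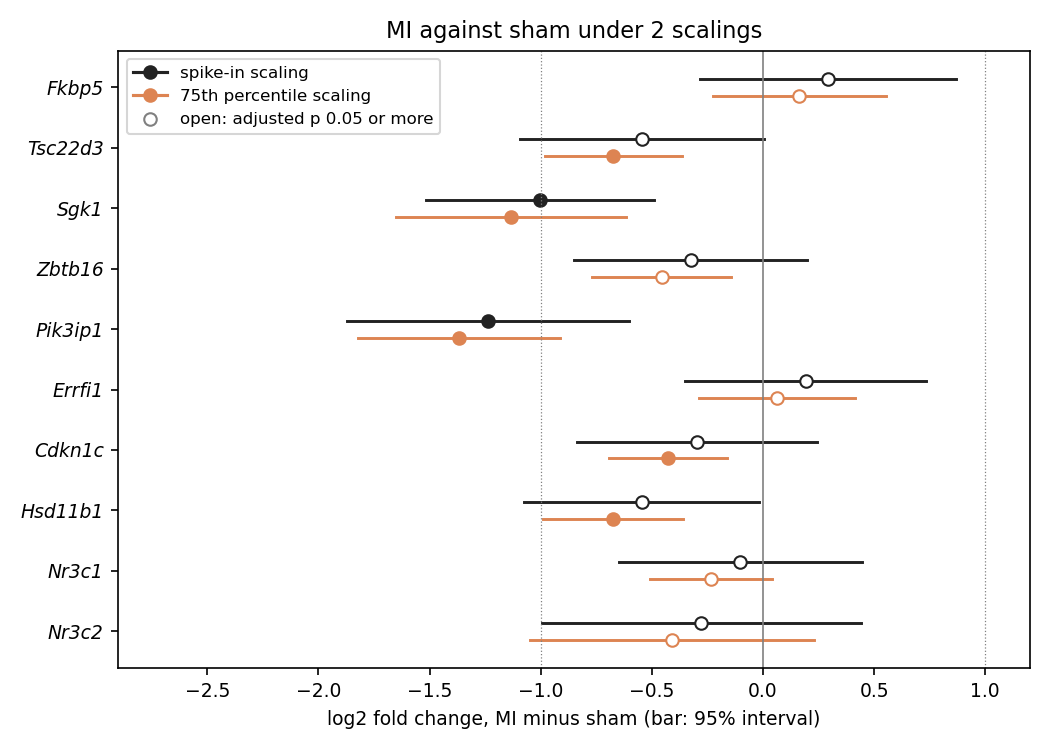
Log2 fold change of MI over sham-operated mice for each of the 10 genes with its 95% interval from limma, with spike-in scaling in black and 75th percentile scaling in orange (filled circles have an adjusted p under 0.05, dotted lines mark 2-fold). Sgk1 and Pik3ip1 are filled with both scalings, Tsc22d3, Cdkn1c and Hsd11b1 with 75th percentile scaling only, and the intervals of Fkbp5, Errfi1, Nr3c1 and Nr3c2 cross 0 with both.

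The glucocorticoid receptor gene itself, Nr3c1, was well above background in all 8 mice. Its brightest probe had log2 signals of 11.86, 11.32, 12.03 and 11.87 in MI mice against 12.16, 11.49, 12.28 and 11.56 in sham-operated mice with spike-in scaling. The groups overlapped, with a log2 fold change of -0.10 (95% interval -0.65 to 0.44, limma adjusted p = 0.903) and of -0.23 (95% interval -0.51 to 0.04, limma adjusted p = 0.226) with 75th percentile scaling. A second, dimmer Nr3c1 probe gave 0.30 (limma adjusted p = 0.718), the other direction, so that no direction was settled for this gene. A 2-fold change lies outside the intervals of both probes.

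The mineralocorticoid receptor gene, Nr3c2, was dim, and its probe was well above background in 2 of 4 MI mice and 4 of 4 sham-operated mice. Its log2 signals were 3.96, 3.60, 5.49 and 4.58 in MI mice against 4.92, 4.33, 4.97 and 4.53 in sham-operated mice with spike-in scaling. The MI mice were both the lowest and the highest of all 8. The log2 fold change was -0.28 (95% interval -0.995 to 0.44, limma adjusted p = 0.761), and in the normalized values of the authors, where spots not well above background are missing, it was 0.22. The number of arrays and the dim signal limit what this probe can show.

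Of 19 chaperones and cofactors of the receptor, a list chosen for this comparison, no gene was called by limma with spike-in scaling, while 2 had an unadjusted p under 0.05 and significance analysis of microarrays called 2. Limma called 4.74% of all probes higher and 0.729% lower with this scaling. Significance analysis of microarrays called 3149 of 33865 probes in either direction, the background for its count of 2. The median log2 fold change of the list was 0.23 and that of all probes 0.11. The highest was Hsp90aa1, a subunit of the chaperone HSP90 picked after its values were seen, at 0.79 (limma adjusted p = 0.0564). Stip1, which passes the receptor between chaperones, rose by 0.49 with 75th percentile scaling (limma adjusted p = 0.0230), and the coactivator gene Ncoa2 then fell by 0.56 (limma adjusted p = 0.0111), where 8.69% of all probes were called higher and 8.8% lower.

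Of 16 genes of steroid synthesis and metabolism, 10 had a retained probe. Among the 6 without one were Cyp11a1, Cyp11b1 and Cyp11b2, enzymes of adrenal steroid synthesis. Other enzymes of steroid synthesis, Cyp21a1 and Cyp17a1, were well above background on all 8 arrays. Their mean log2 signals in sham-operated mice were 7.41 and 13.51 with spike-in scaling, and neither was called with either scaling. Star, which carries cholesterol into mitochondria, was the only one of the 10 called with spike-in scaling, as higher, where 4.74% of all probes were. Its signals were 7.81, 7.31, 7.24 and 8.39 in MI mice against 6.53, 6.38, 6.57 and 6.67 in sham-operated mice, without overlap, and it rose by 1.15 (SE 0.26, limma adjusted p = 0.0151). A second probe for Star gave 0.52. Akr1c14, which reduces steroids, fell by 0.83 with 75th percentile scaling (limma adjusted p = 0.0407) and had -0.70 with spike-in scaling (limma adjusted p = 0.129).

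The 30 other genes known to be induced by glucocorticoids were split in direction. With spike-in scaling 4 of the 30 were called higher and 1 lower, where 4.74% and 0.729% of all probes were, and their median log2 fold change was 0.18. Il1r2, the decoy receptor for interleukin-1, had 11.48, 12.08, 11.77 and 11.87 in MI mice against 8.64, 7.91, 8.88 and 8.51 in sham-operated mice, and it rose 9.97-fold (log2 fold change 3.32, SE 0.25, limma adjusted p = 5.94e-07). Angptl4, an inhibitor of lipoprotein lipase, rose by 2.05 (SE 0.44, limma adjusted p = 0.0098), with signals from 13.56 to 14.86 in MI mice, against 10.73 to 13.11 in sham-operated mice. Tnfaip3, an inhibitor of NF-kappaB signaling, rose by 1.31 (limma adjusted p = 0.00657), and the transglutaminase gene Tgm2 by 0.89 (limma adjusted p = 0.0262). Fbxo32, the muscle ubiquitin ligase atrogin, had 9.91, 8.98, 9.72 and 10.01 in MI mice against 10.67, 10.79, 11.06 and 11.26 in sham-operated mice, and it fell by 1.29 (SE 0.26, limma adjusted p = 0.0062). Fbxo32 thus fell, as Sgk1 and Pik3ip1 did, while Il1r2, Angptl4, Tnfaip3 and Tgm2 rose. With 75th percentile scaling 11 of the 30 were called, 6 higher and 5 lower, where 8.69% and 8.8% of all probes were, with Klf15, a transcription factor of cardiac metabolism, among the lower at -1.04 (limma adjusted p = 0.00473).

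Genes known to be repressed by glucocorticoids were higher in MI mice as a rule. Of 15 such genes 14 were detected in both groups. Limma called 12 of the 14 higher with either scaling, where 4.74% and 8.69% of all probes were called higher. Among the 14, Sele was well above background in 4 MI mice but in only 1 sham-operated mouse. The list was chosen with earlier results of these data known, and the study names Il1b, Il6, Tnf and others of it as differentially expressed. The count is thus a description. The median log2 fold change of the 15 was 2.97 with spike-in scaling, also with Csf2 at its lower bound. The neutrophil chemokine gene Cxcl2 rose by 4.26 (SE 0.38, limma adjusted p = 3.03e-06), the chemokine gene Ccl4 by 4.00 and the interleukin gene Il6 by 3.43. Csf2, the gene of a myeloid growth factor, was not well above background in any sham-operated mouse, so that it was retained through the MI mice alone. It was at least 8.64-fold higher in MI mice, taking in each sham-operated mouse the lowest signal well above background on that array. Nos2 at 0.39 and Pomc at 0.34, named after their values were seen, did not pass, with limma adjusted p = 0.427 and 0.581. Summed signals of 10 neutrophil markers ranged with spike-in scaling from 206604 to 316436 in MI mice, against 63212 to 85976 in sham-operated mice, with the defining marker Ly6g without a retained probe. Of the 10, 9 were detected in both groups and 5 of these were called higher, where 4.74% of all probes were, while Ngp was retained through the MI mice alone. Neutrophils are known to express Il1r2, Cxcl2 and Ccl4, and the part of such cells in these values was not tested. All 10 cardiomyocyte markers had a retained probe, and their summed signals overlapped between the groups, from 2240420 to 3339010 in MI mice, against 2444050 to 3391410 in sham-operated mice.

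**Figure D3:**
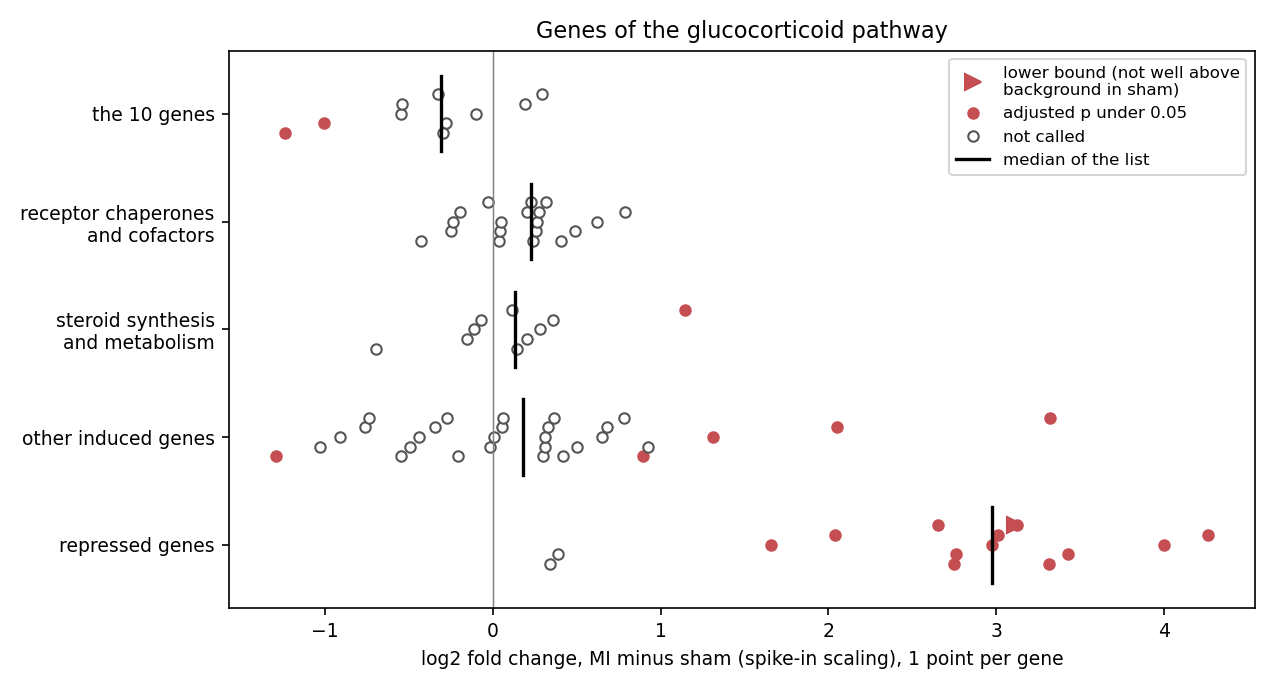
Log2 fold change of MI over sham-operated mice with spike-in scaling for the 10 genes and for the retained genes of 4 lists of the glucocorticoid pathway, 1 point per gene (red has a limma adjusted p under 0.05, the black bar is the median of the list, the triangle is Csf2 at its lower bound). The repressed genes lie right of 1 for 13 of 15, while the 10 genes lie between -1.24 and 0.29, and the other induced genes extend to both sides.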

How the data were processed

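Ventricular RNA of 8 mice, 4 per group, was read on 1 slide in 1 scan, with groups and replicate numbers from the labels. Nothing beyond the labels says that mice are independent litters, so p-values measure the spread between these mice. The deposited intensities are, per the file headers, processed signals of Feature Extraction 11.0.1.1, with the local background subtracted and no normalization between arrays. The authors also deposited log2 values, normalized by limma and vsn on the spike-in probes, in which spots not well above background are missing. These log2 values were used as an alternative.

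For the values given here, log2 processed signals were shifted by each array's mean over 234 spots of 7 spike-in probes. This shift was used in place of a refitted vsn model, whose additive constants of 166 to 257 hold back the fold of dim probes. Outlier spots were dropped, the remaining spots of each probe were averaged, and probes other than controls were retained when 4 or more arrays detected them well above background, which kept 34038 of 55681 probes. The share of spots well above background was 58.6% to 66.4% per array, and 1 spot was saturated. The number of arrays limits the precision. Groups were compared with limma 3.58.1 (R 4.3.3) without covariates, with Benjamini-Hochberg adjustment over all retained probes, and for single genes all 70 splits of the mice gave an exact permutation p, two-sided. The fit was tested on simulated probes with independent noise, of which 200 of 33865 were changed 4-fold. Limma recovered 90% of the 200 and called 7 unchanged probes, counting only calls past 2-fold. Calls at any fold were not counted in the simulation. Shifts shared by a whole array and changes near 2-fold, as for the genes here, were not simulated. Names came from RefSeq transcripts in the design through the GRCm38.p6 tables, which named 26576 of 28116 probes with such a transcript, and for each gene the brightest retained probe was used. A probe below background on all arrays of a group was given as a bound. Summed signals of marker and clock lists were added on the linear scale, so that the brightest genes of a list weigh most.

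The 10 genes, the 4 pathway lists (80 genes), the 9 lists of cell type markers and the 2 lists of clock genes were chosen with earlier results of these data known. All 10 genes are named. Of the lists, at most the 4 called genes with the largest fold in each direction are named, and other genes, single marker genes included, were named with their values seen first. Alternatives were 75th percentile scaling, the refitted vsn model, quantile normalization, normexp correction of the median intensities (offset 50), the values of the authors, other filters on detection, the mean over probes of a gene, significance analysis of microarrays with 70 permutations, an unmoderated test, the replicate number or the array row as a block, and each mouse left out. Leaving out mice with 75th percentile scaling, a replicate block with that scaling, outlier spots kept and each array row alone were added after seeing the data. Genome coordinates of the files were not used here. Python 3.11.15 was used for the other computations.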

Additional observations from a re-analysis of the deposited data

How the results depend on the processing

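Sgk1 and Pik3ip1 were lower in MI mice under every alternative run, from -1.32 to -0.89 and from -1.50 to -0.93 on the log2 scale, and past the threshold in 23 and 27 of 32 alternatives. The 32 include the fits added after seeing the data. Among those added were 8 fits without 1 mouse with 75th percentile scaling, all of which passed for both genes. With spike-in scaling 3 of 8 such fits passed for Sgk1 and 8 of 8 for Pik3ip1. Pik3ip1 was not called with the refitted vsn model (-1.08, limma adjusted p = 0.0566). Against 2 of the 10 genes and 1862 probes called, 1520 of them past 2-fold, scaling to the 75th percentile called 5 genes and 5955 probes, and quantile normalization 5 genes and 6179 probes. The refitted vsn model called 1 gene, 0 past 2-fold (4 at an unadjusted p under 0.05; significance analysis of microarrays was not run on these values), and 333 probes past 2-fold. Normexp correction called 1 gene and 609 probes past 2-fold, and the values of the authors 1012 probes past 2-fold. Without the filter on detection limma called 0 genes and 0 past 2-fold (2 at an unadjusted p under 0.05), with 1009 probes and 993 past 2-fold. The unmoderated test, adjusted by the Benjamini-Hochberg method, called 0 genes and 0 past 2-fold (2 at an unadjusted p under 0.05, 2 with significance analysis of microarrays), with 743 probes and 636 past 2-fold, and significance analysis of microarrays called 3149 probes. With each mouse left out, between 1 and 2 genes were called, between 1 and 2 past 2-fold, 1346 to 2255 probes and 1238 to 1850 past 2-fold. With 75th percentile scaling these ranges were 4 to 5, 1 to 2, 3306 to 6312 and 1127 to 1755. The chaperones and cofactors called went from 0 to 2 with 75th percentile scaling and 1 with the values of the authors, the steroid genes from 1 to 2 and the other induced genes from 5 to 11 with 75th percentile scaling. The cause of these differences was not tested.

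The labels number the replicates alike in both groups. The correlations of same-numbered mice over probes, as deviations from the group means, were between -0.07 and 0.20, against -0.26 to 0.33 for other pairs. The numbers were not taken to pair the mice. A correlation over probes cannot show an offset shared by whole arrays, so it could not settle whether the numbers pair the mice. With the replicate block limma called 3 genes, Hsd11b1 joining (limma adjusted p = 0.0439), and 4310 probes, and with the block and 75th percentile scaling 4 genes and 3989 probes. Values that crossed 0 belonged to genes that were not called with either scaling of all 8 mice. Nr3c2 had -0.64 without MI replicate 3, and -0.70 without that mouse with 75th percentile scaling, where it was called (limma adjusted p = 0.0468). It had 0.22 in the values of the authors, 0.35 with spots not well above background missing and 0.29 in the second array row alone. With each mouse left out Nr3c1 ran from -0.31 (scaled to the 75th percentile) to 0.047, above 0 without MI replicate 2 (0.047) or sham replicate 3 (0.033), and it had 0.032 in the second array row and 0.10 as the mean over its probes. Errfi1 ran from -0.023 to 0.33, below 0 without MI replicate 2 (-0.0069) or MI replicate 3 (-0.023) with 75th percentile scaling. Within 1 array row, with 2 mice against 2, neither Sgk1 nor Pik3ip1 was called, with limma adjusted p from 0.137 to 0.775.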

Other observations

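Per1, a clock gene that glucocorticoids also induce, had -0.76 with spike-in scaling and -0.89 with 75th percentile scaling in MI mice (limma adjusted p = 0.168 and 0.0732). Among 9 clock genes high with Dbp, 0 were called by limma with spike-in scaling (4 at an unadjusted p under 0.05), with a median log2 fold change of -0.34. Of the 9, 6 had a negative value and 3 a positive one, and Bhlhe41, a repressor of the clock, was among the 4 at 0.77 (limma adjusted p = 0.192). With 75th percentile scaling Nr1d2 fell by 0.81 (limma adjusted p = 0.0190) and Ciart by 0.73 (limma adjusted p = 0.0136). Both genes encode repressors of the clock. The summed signals of the 9 genes overlapped between the groups with both scalings. With 75th percentile scaling they ranged from 10857 to 21157 in MI mice, against 20217 to 25974 in sham-operated mice. With spike-in scaling these ranges were 11347 to 25588 and 18393 to 26463. Among 5 clock genes high with Arntl, 0 were called by limma with spike-in scaling (2 at an unadjusted p under 0.05), and Cry1 rose by 0.79 with 75th percentile scaling (limma adjusted p = 0.0383). Beside these counts, limma called 4.74% of all probes higher and 0.729% lower with spike-in scaling. The shares were 8.69% and 8.8% with 75th percentile scaling. Per1, Bhlhe41, Nr1d2, Ciart and Cry1 were named after their values were seen.

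Of the other marker lists, summed signals of 6 smooth muscle markers ranged from 57349 to 83168 in MI mice, against 33262 to 49149 in sham-operated mice with spike-in scaling, with 1 of the 6 called higher, Acta2 (1.47, limma adjusted p = 0.00431). Of the 6, 3 had a negative value, Myh11 (-0.30), Tagln (-0.06) and Rgs5 (-0.33), and Rgs5 fell by 0.46 with 75th percentile scaling (limma adjusted p = 0.0245). Summed signals of 9 retained macrophage markers were 18492 to 27777 in MI mice, against 15200 to 22271 in sham-operated mice with spike-in scaling, and overlapped. Limma called 2 of the 9 higher, while 4 of the 9 had a negative value. Over all probes 4.74% were called higher and 0.729% lower with spike-in scaling, and 8.69% and 8.8% with 75th percentile scaling. The sums of 4 retained T cell markers, 8 endothelial markers and 2 retained red blood cell markers overlapped between the groups, with 1, 0 and 0 genes called by limma and 2, 1 and 0 at an unadjusted p under 0.05. Of 4 retained B cell markers, limma called 2 higher with spike-in scaling and 0 with 75th percentile scaling (3 at an unadjusted p under 0.05), and their summed signals did not overlap with spike-in scaling (198 to 287 in MI mice, 119 to 168 in the others) but did with 75th percentile scaling (167 to 319 and 121 to 182). Of these 4 markers Ms4a1 was detected in 3 MI mice and 1 sham-operated mouse.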
